A study of Mus musculus with 6 samples.

Results

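The small leucine-rich proteoglycans (SLRPs) studied here are 10 secreted matrix proteins: decorin (Dcn), biglycan (Bgn), asporin (Aspn), lumican (Lum), keratocan (Kera), fibromodulin (Fmod), Prelp, osteomodulin (Omd), osteoglycin (Ogn) and epiphycan (Epyc). They were taken by name, and all 10 were found among the 57180 gene identifiers of the files and passed the filter on low counts, which left 17639 genes tested. RNA-seq was carried out on primary corneal endothelial cells of mice homozygous for the Q455K allele of Col8a2 (Col8a2Q455K/Q455K), a model of Fuchs endothelial corneal dystrophy. In the Col8a2 group (3 libraries, labelled control and untreated) this was the only named allele, and in the Tcf4+/- group (3 libraries, Col8a2Q455K/Q455K/Tcf4+/-) 1 copy of Tcf4, an E protein transcription factor, was also knocked out. No library came from a mouse with normal Col8a2, so both groups carried the mutant collagen. The labels give no age, strain or sex, do not say whether a library was 1 animal or a pool, and name no cell-type-specific driver of the knockout, and p-values therefore reflect only how these libraries differ from each other, which may in part be technical. The comparison asked what Tcf4 heterozygosity changes in the endothelium of this model.

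SLRPs have a horseshoe-shaped core of leucine-rich repeats that binds fibrillar collagen and, in most members, carries chains of keratan sulfate or of chondroitin and dermatan sulfate. In the cornea they keep collagen fibrils thin and evenly spaced, which keeps the stroma clear. Keratocytes, the fibroblast-like cells of the stroma, are their main known source, whereas the endothelium is the single cell layer on the inner side of the cornea that pumps fluid out of it. SLRP transcripts in a preparation of corneal endothelium therefore bear on both cell types. In bulk RNA, fewer cells of a type and less RNA per cell cannot be told apart.

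The genes of the family lie in clusters. In the order of the RefSeq annotation, Dcn, Lum, Kera and Epyc followed each other on chromosome 10, Ecm2, Aspn, Omd and Ogn on chromosome 13, and Optc, Prelp and Fmod on chromosome 1. Proximal promoters are given for Ogn, whose level was least related to the other members across all libraries. They are also given for Kera, the most keratocyte-restricted member, and for the neighbours Fmod and Prelp, whose levels moved together. Each run is the 250 bases before the annotated start in RefSeq for GRCm38.p6 (the files use GRCm39), 5′ to 3′ on the gene's strand, at chr13:49607765-49608014 (plus strand) for Ogn, chr10:97606955-97607204 (plus) for Kera, chr1:134037004-134037253 (plus) for Fmod and chr1:133921402-133921651 (minus) for Prelp. Capitals mark the E-box CANNTG, the motif of the E protein family, which reads the same on both strands.
Ogn: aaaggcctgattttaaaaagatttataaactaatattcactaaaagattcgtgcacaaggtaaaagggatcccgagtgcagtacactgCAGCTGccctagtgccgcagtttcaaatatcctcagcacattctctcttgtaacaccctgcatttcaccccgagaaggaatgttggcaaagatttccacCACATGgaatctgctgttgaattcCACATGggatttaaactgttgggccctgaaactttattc
Kera: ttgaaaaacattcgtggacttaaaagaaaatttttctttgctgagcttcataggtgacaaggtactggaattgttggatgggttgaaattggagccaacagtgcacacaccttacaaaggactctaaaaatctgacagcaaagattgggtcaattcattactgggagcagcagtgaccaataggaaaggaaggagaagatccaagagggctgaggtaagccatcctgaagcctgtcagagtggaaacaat
Fmod: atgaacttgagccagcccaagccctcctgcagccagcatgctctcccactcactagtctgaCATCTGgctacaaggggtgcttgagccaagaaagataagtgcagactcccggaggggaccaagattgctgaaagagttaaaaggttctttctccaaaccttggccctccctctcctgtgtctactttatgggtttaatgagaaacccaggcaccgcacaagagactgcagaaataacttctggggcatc
Prelp: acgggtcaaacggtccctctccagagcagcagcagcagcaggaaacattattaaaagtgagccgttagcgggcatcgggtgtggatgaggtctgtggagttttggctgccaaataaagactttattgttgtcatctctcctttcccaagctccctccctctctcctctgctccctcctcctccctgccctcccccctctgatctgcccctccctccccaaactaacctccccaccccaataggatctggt
Ogn held 3 E-boxes (CAGCTG once and CACATG at 2 places), Fmod held 1 (CATCTG), and no E-box letters were in the windows of Kera and Prelp. Entries were found for 8 of the 10 members (Epyc with 2 starts), and not for Dcn and Lum. An E-box was present in 5 of these 8, against 66.2% of 32851 RefSeq promoters of the same length. The E protein form CACCTG, searched on both strands and itself a kind of E-box, was in 0 of 8, against 17.2% of all promoters. CCAAT, searched on both strands, occurred 3 times in the Kera window and in 3 of 8 members, against 33.9% of all promoters. These are letter matches and not measured binding.

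Total estimated counts were 30344161 to 54265479 per library, the lowest in Tcf4+/- replicate 3, with 19680 to 22538 genes detected. Markers of corneal endothelium were high in every library: 14 of 14 were tested, and their summed level was 15552 to 23439 CPM (counts scaled to the same depth in each library, with TMM factors) in the Col8a2 group and 12755 to 23436 CPM in the Tcf4+/- group. Keratocyte markers other than SLRPs were present as well, 15 of 15, at a summed 8284 to 13965 CPM and 9901 to 13090 CPM. Lens markers, 12 of 13 tested with none at 0 in all libraries, summed to 628, 33.9 and 294 CPM in Col8a2 replicates 1, 2 and 3, and to 91.6, 4262 and 11230 CPM in Tcf4+/- replicates 1, 2 and 3. Tcf4+/- replicates 2 and 3 thus stood apart, and the fold changes of the members are given with and without both. Length minus effective length in the files was 155 and 150 bases in these libraries and 211 to 241 in the others, so their RNA fragments or reads were treated as shorter. Tcf4 itself, the check of the labels, was at 313, 470 and 430 CPM without and at 440, 599 and 373 CPM with the labelled knockout, and so no lower there (log2 fold change 0.22, SE 0.33), so directions below refer to the libraries as labelled.

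SLRP transcripts were abundant in this endothelial preparation, and decorin made up most of them. By TPM (a level per length, on the same total in each library), Dcn was at 3630, 3818 and 2131 in Col8a2 replicates 1 to 3 and at 3153, 5789 and 2637 in Tcf4+/- replicates 1 to 3, a mean of 3526 ± 1272 TPM (SD, n = 6). It ranked first of the 10 in every library and accounted for 63.4% to 71.1% of the summed SLRP level, which was 3150 to 8488 TPM. The other members followed in the order Bgn (569 ± 221 TPM), Lum (459 ± 216), Kera (324 ± 124), Fmod (179 ± 135), Ogn (140 ± 70.5), Prelp (54.8 ± 27.2), Omd (4.11 ± 2.01), Aspn (3.22 ± 2.63) and Epyc (0.198 ± 0.318; all SD, n = 6).

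**Figure D1:**
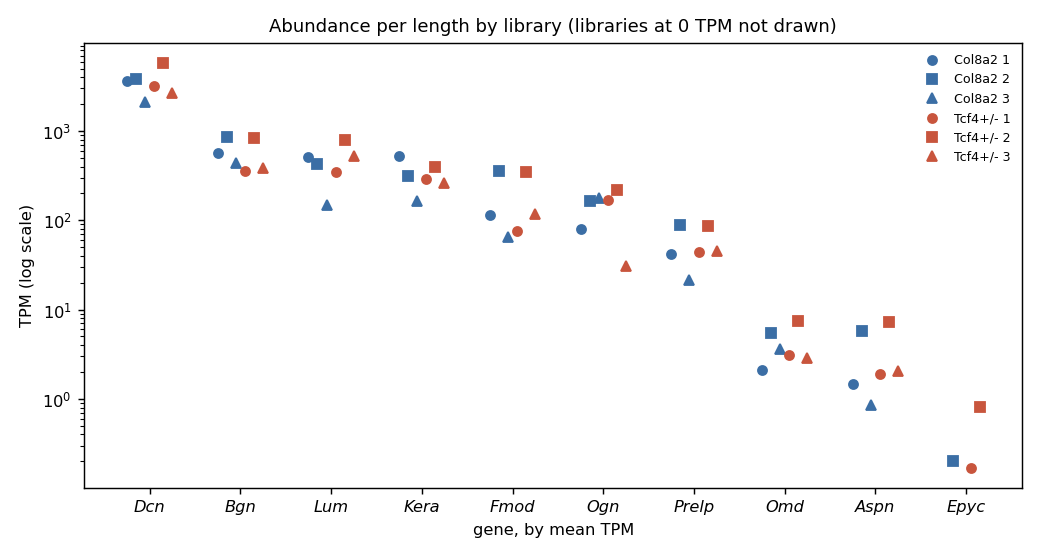
Level of each SLRP gene in TPM (log axis) in each of 6 libraries, ordered by mean. Colours are the groups and symbols the replicates. Dcn lies above all other members in every library, and Omd, Aspn and Epyc lie below 10 TPM throughout.

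Steps between neighbours in this order were tested by an exact two-sided sign-flip permutation test of the log2 ratio over 6 libraries, in 9 pairs. Dcn exceeded Bgn, Prelp exceeded Omd and Aspn exceeded Epyc in 6 of 6 libraries, each with an exact p of 0.03125, the smallest this test can give, and 0.09375 after Benjamini-Hochberg adjustment. The mean log2 ratio of these steps was 2.65 ± 0.37, 3.67 ± 0.60 and 3.64 ± 0.68 (SD, n = 6, with 0.1 added to each TPM). The other 6 steps did not hold in every library. Bgn lay above Lum in 5 of 6 (exact p = 0.281), Lum above Kera in 4 of 6 (0.125) and Kera above Fmod in 5 of 6 (0.0625). Fmod lay above Ogn in 4 of 6 (0.656), Ogn above Prelp in 5 of 6 (0.0625) and Omd above Aspn in 5 of 6 (0.0938). None of the 9 steps had an adjusted p below 0.09375. The order was taken from the means of the same 6 libraries, so these p-values are not an independent test of it. Members further apart in the order were not tested against each other. Bgn ranked 2 or 3 in every library.

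No SLRP gene passed the threshold for a difference between the groups. With edgeR's quasi-likelihood test, 0 of the 10 members passed an adjusted p of 0.05, where 0% of the 17639 genes tested did. None had an unadjusted p under 0.05 (2.42% of all genes), and in none did the CPM ranges of the groups stay apart (8.1% of all genes). DESeq2 and limma voom also called 0 of 10, and DESeq2 called 0.463% of the 22656 genes it tested. The fitted difference was above 0 in 9 of 10 members, with 50.1% of all genes fitted higher, and the median log2 fold change of the members was 0.48 against 0.0011 over all genes. That count was 5 of 10 without Tcf4+/- replicate 2 and 3 of 10 without Tcf4+/- replicates 2 and 3, so it changed with the libraries used. Leaving out both leaves only Tcf4+/- replicate 1 in its group. That library was the highest in erythroid markers, at a summed 6127 CPM against 531 to 2943 CPM in the others. Without both, the log2 fold change was 0.043 for Dcn, -0.73 for Bgn, -0.37 for Aspn, -0.0080 for Lum, -0.18 for Kera, -1.11 for Fmod, -0.091 for Prelp, -0.023 for Omd and 0.36 for Ogn.

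**Figure D2:**
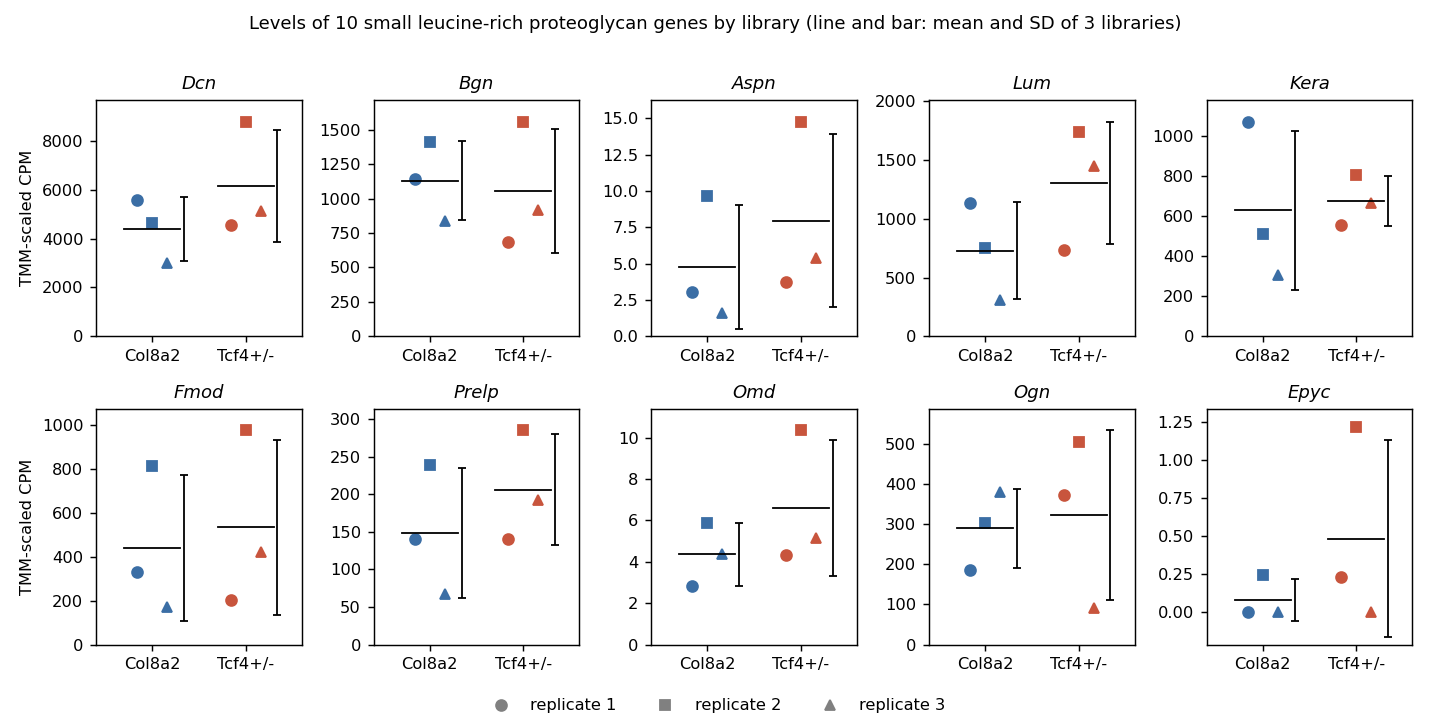
TMM-scaled CPM of the 10 SLRP genes in each library, with the mean and SD of 3 libraries per group. The groups overlap in every panel, and Tcf4+/- replicate 2 (red square) is the highest library for 9 of the 10 genes.

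Among the class I members, decorin, which binds collagen and growth factors of the TGF-β family, was at 5565, 4638 and 2987 CPM in Col8a2 replicates 1 to 3 and at 4556, 8783 and 5139 CPM in Tcf4+/- replicates 1 to 3. Only Tcf4+/- replicate 2 lay above the Col8a2 range, and the group means were 4397 ± 1306 and 6159 ± 2291 CPM (SD, n = 3). The log2 fold change was 0.49 (SE 0.43, 95% interval -0.47 to 1.45, unadjusted p = 0.284, adjusted p = 0.99988 by edgeR). It was 0.15 without Tcf4+/- replicate 2 and 0.043 without replicates 2 and 3. Biglycan, its close relative, was at 1144, 1408 and 840 CPM against 686, 1559 and 918 CPM, and was the 1 member fitted lower (log2 fold change -0.10, SE 0.41). Asporin, which carries an aspartate stretch in place of a glycosaminoglycan chain, was low, at 3.08, 9.63 and 1.62 CPM against 3.73, 14.8 and 5.37 CPM (0.74, SE 0.86). Its libraries spanned 9.12-fold, the widest span of the 9 members detected in every library.

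Among the class II members, lumican, whose loss in mice clouds the cornea, had the lowest p of the 10. It was at 1135, 750 and 305 CPM in Col8a2 libraries against 731, 1742 and 1450 CPM in Tcf4+/- libraries. Tcf4+/- replicates 2 and 3 were above all Col8a2 libraries, whereas Tcf4+/- replicate 1 lay between Col8a2 replicates 2 and 3. The means were 730 ± 415 and 1307 ± 520 CPM (SD, n = 3), with a log2 fold change of 0.84 (SE 0.52, 95% interval -0.32 to 2.0, unadjusted p = 0.138, adjusted p = 0.99988 by edgeR). Without Tcf4+/- replicates 2 and 3 the log2 fold change was -0.0080.

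Keratocan, a keratan sulfate proteoglycan largely restricted to keratocytes and altered in human cornea plana, had its highest level in Col8a2 replicate 1, unlike any other member. It was at 1073, 510 and 306 CPM in Col8a2 libraries against 558, 805 and 668 CPM in Tcf4+/- libraries, with a log2 fold change of 0.10 (SE 0.46, 95% interval -0.92 to 1.13). Fibromodulin, which competes with lumican for a site on collagen, was high in replicate 2 of both groups, at 330, 812 and 172 CPM against 205, 976 and 420 CPM (0.28, SE 0.65). Prelp, which anchors basement membrane to collagen, was at 141, 239 and 66.7 CPM against 141, 286 and 192 CPM (0.47, SE 0.46). Its estimated counts were not whole in the 3 Col8a2 libraries, so part of its reads was shared with another gene there. Osteomodulin, best known from bone, was at 2.85, 5.90 and 4.37 CPM against 4.32, 10.4 and 5.13 CPM (0.60, SE 0.71).

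The class III members were osteoglycin, also called mimecan, and epiphycan, a cartilage proteoglycan. Ogn was at 185, 302 and 380 CPM in Col8a2 libraries against 373, 505 and 90.2 CPM in Tcf4+/- libraries. Its lowest library, Tcf4+/- replicate 3, was the second highest for Lum. The log2 fold change of Ogn was 0.16 (SE 0.55, 95% interval -1.08 to 1.40), and its sign turned with limma voom, on TPM and with the replicate number as a block. Epyc had 0, 12 and 0 estimated counts in Col8a2 replicates 1 to 3 and 11, 67 and 0 in Tcf4+/- replicates 1 to 3, so it was at 0 in 3 of 6 libraries and no fold is given. It was detected in both groups, and most of its counts came from 1 library.

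**Figure D3:**
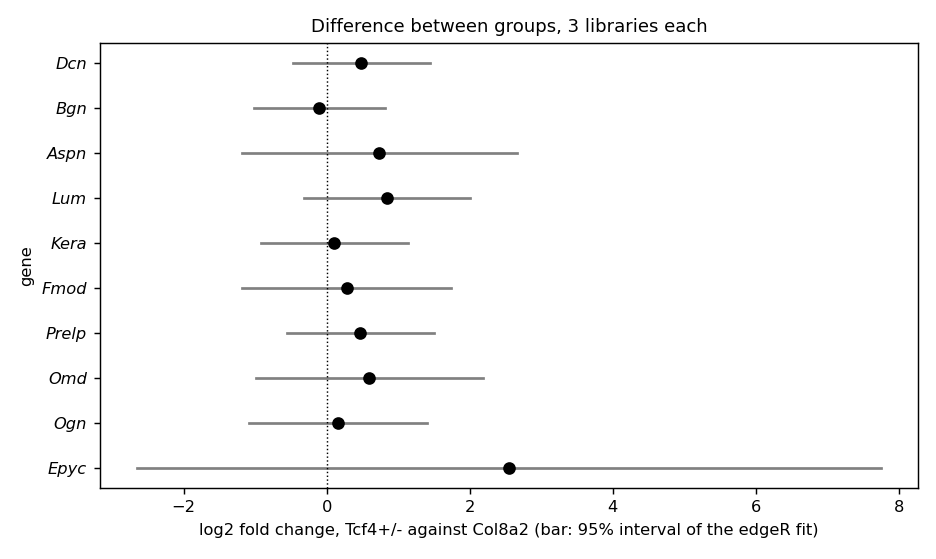
Log2 fold change of each SLRP gene, Tcf4+/- against Col8a2 (dots), with the 95% interval of the edgeR fit (bars; 3 libraries per group). Every interval includes 0, and that of Epyc, with few counts, is the widest.

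Levels of the members ranged widely between libraries. For the 7 members with a mean of at least 10 TPM, the highest library exceeded the lowest by a median of 4.29-fold in CPM, against 2.16-fold for the 7244 tested genes above that level. Of these 7, 6 were highest in Tcf4+/- replicate 2 (85.7%, against 11.6% of the 7244 genes) and 5 were lowest in Col8a2 replicate 3 (71.4%, against 12.0%). Among all 10, the count highest in Tcf4+/- replicate 2 was 9 in CPM and 6 in TPM. Of the 7, only Dcn, Lum and Ogn were highest there in TPM, whereas Fmod, Bgn and Prelp were highest in Col8a2 replicate 2 and Kera in Col8a2 replicate 1. By mean log2 CPM, the keratocyte markers were also highest in Tcf4+/- replicate 2 (7.75) and lowest in Col8a2 replicate 3 (6.39), with 6.80 to 7.40 in the other 4. By summed CPM they were highest in Col8a2 replicate 1 (13965 CPM, against 13090 CPM in Tcf4+/- replicate 2) and again lowest in Col8a2 replicate 3 (8284 CPM). The part of keratocyte content in the SLRP levels was not tested.

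Levels of the members were mostly positively related across libraries, least so for osteoglycin, whose 9 pairs had a median r of 0.069 against 0.68 for the 36 pairs without it. Of 45 pairs, 41 had a positive Pearson r of log2 CPM over 6 libraries (91.1%), with a median of 0.64 and a range from -0.33 to 0.96. Over all pairs of the 7244 genes, 50.6% were positive and the median was 0.0098. By exact permutation, 7 pairs had p under 0.05 and 0 passed Benjamini-Hochberg adjustment over the 45 (lowest adjusted p 0.0938 for r and 0.125 for rho). The median was 0.65 on deviations from the group means. It fell to 0.26, with 31 of 45 positive, when 2 libraries were left out of each pair. These were the 2 farthest from the median of 1 gene of the pair, the first named below. The contrast of Ogn was smaller there. The median was 0.18 for the 9 pairs with Ogn (7 positive) and 0.32 for the 36 pairs without it (24 positive). Cutting the range of 1 gene can itself lower r, and the part of the extreme libraries in the shared course was not tested. Without Tcf4+/- replicate 2 alone, 33 of 45 were positive. The pairs of Epyc rest on few counts, most of them from Tcf4+/- replicate 2.

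**Figure D4:**
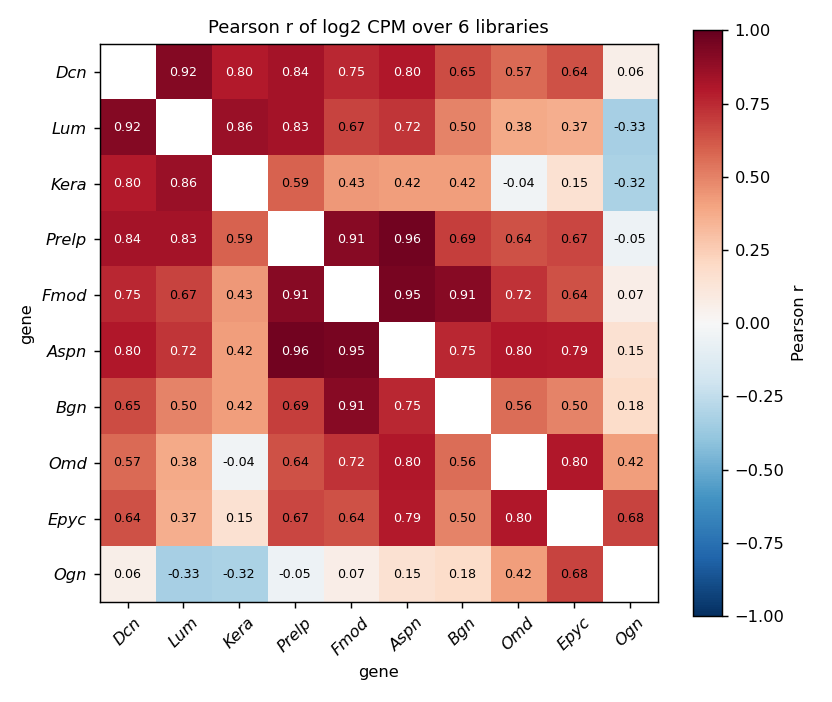
Pearson r of log2 CPM over 6 libraries for each pair of SLRP genes (red positive, blue negative). Pairs of Fmod, Prelp and Aspn are all above 0.9, as are Dcn with Lum and Fmod with Bgn, while the Ogn row is pale or blue for 7 of its 9 pairs.

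The 5 highest values were those of Prelp with Aspn, Fmod with Aspn, Dcn with Lum, Fmod with Prelp and Fmod with Bgn. Prelp and Aspn had r = 0.96 (rho 0.94, exact permutation p = 0.00278 for r and 0.0167 for rho, adjusted p for r 0.0938, r without the 2 farthest libraries 0.98). Fmod and Prelp, neighbours on chromosome 1, had r = 0.91 (rho 1, exact permutation p = 0.00417 and 0.00278, adjusted p for r 0.0938, 0.83 without 2). Fmod and Aspn, on different chromosomes, had r = 0.95 (rho 0.94, exact permutation p = 0.00694 and 0.0167, adjusted p for r 0.104, 0.78 without 2). Dcn and Lum, neighbours on chromosome 10, had r = 0.92 (rho 0.94, exact permutation p = 0.00972 and 0.0167, adjusted p for r 0.109, 0.79 without 2). Fmod and Bgn, on different chromosomes, had r = 0.91 (rho 0.89, exact permutation p = 0.0236 and 0.0333, adjusted p for r 0.212, 0.62 without 2). Dcn and Lum were also related to Prelp, with r of 0.84 and 0.83, but r was -0.33 and -0.054 without 2. Lum and Kera had r = 0.86 (rho 0.77, exact permutation p = 0.0333 and 0.103, adjusted p for r 0.24), which was 0.59 without 2 libraries and 0.60 without Col8a2 replicate 3. Pairs on 1 chromosome had a median r of 0.72 (10 pairs) and the others 0.64 (35 pairs), a difference that was not tested.

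Ratios of TPM within a library were also read, without scaling to depth. Lum to Kera ran from 0.921 to 2.01, and was highest in Tcf4+/- replicates 2 and 3. Dcn to Bgn ran from 4.50 to 8.96, and Fmod to Prelp from 1.71 to 3.99. Fmod to Kera ranged more widely, from 0.219 to 1.13, a span of 5.16-fold. Lum to Ogn spanned 19.99-fold, at 6.44, 2.61 and 0.846 in the Col8a2 group and 2.06, 3.63 and 16.9 in the Tcf4+/- group, and its extremes were Col8a2 replicate 3 and Tcf4+/- replicate 3.

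The level of osteoglycin across libraries ran alongside the corneal endothelium markers and not the keratocyte markers, though no relation with a marker list passed adjustment. Its log2 CPM had r = 0.996 with the mean of the 14 endothelium markers (rho 1), with exact permutation p of 0.00139 for r and 0.00278 for rho. The first is the smallest that 6 libraries allow, and the adjusted p for r was 0.0694 over the 100 relations of 10 members with 10 marker lists. The value was 0.97 without the 2 farthest libraries, 0.999 on deviations from the group means, and 0.994 to 0.999 with each library left out. For relations with a marker list, the 2 farthest are those farthest from the median of the list. Of 7223 other genes with a mean of at least 10 TPM, 1 had an r with this list as high as that of Ogn, and 4.13% had an r over 0.9. Among the single markers, 12 of 14 were positively related to Ogn, 8 with r over 0.8, from -0.68 for Car2 to 0.98 for Col8a2. Against the keratocyte list Ogn had r = -0.20 (rho -0.14, exact permutation p = 0.70 and 0.803), which was -0.99 without the 2 farthest libraries, Tcf4+/- replicate 2 and Col8a2 replicate 3.

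**Figure D5:**
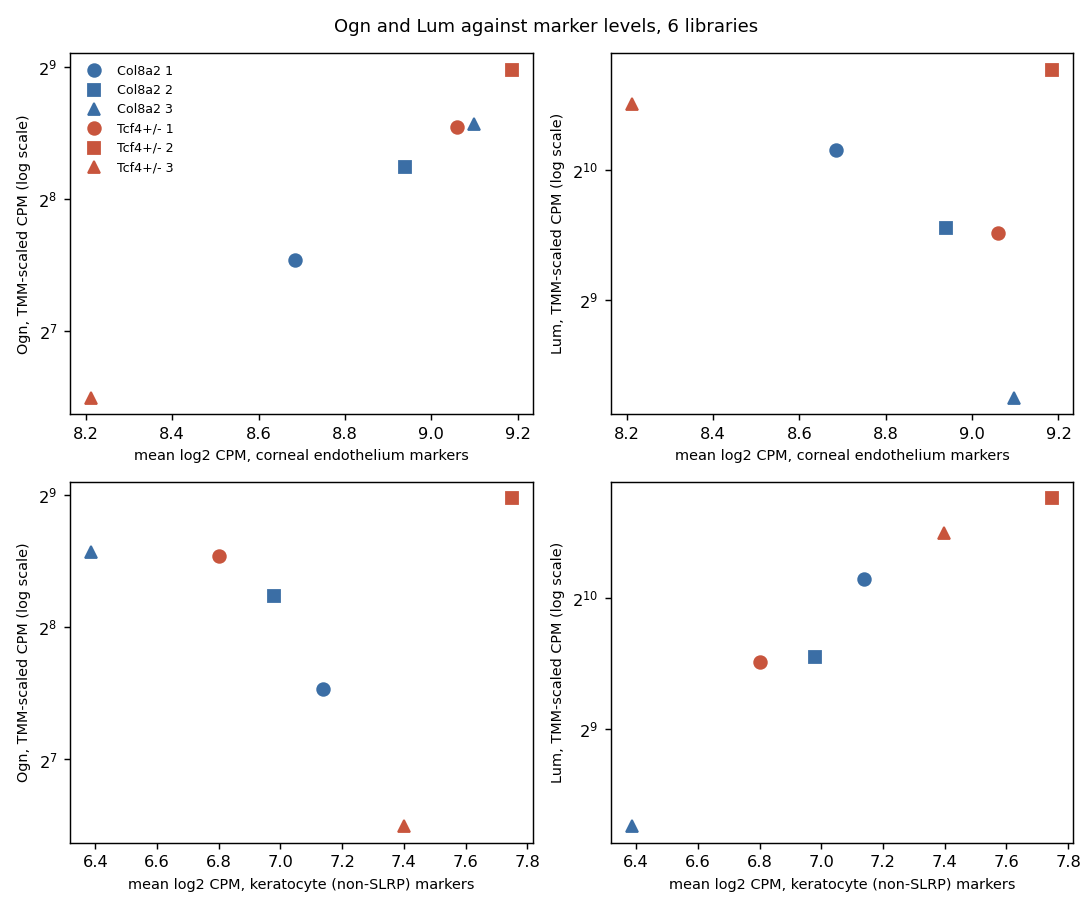
CPM of Ogn (left) and Lum (right), on log axes, against the mean log2 CPM of the corneal endothelium markers (top) and of the keratocyte markers without SLRPs (bottom), 1 point per library. Ogn lines up with the endothelium markers (r = 0.996) and Lum with the keratocyte markers (r = 0.97).

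Lumican ran alongside the keratocyte markers. It had r = 0.97 with the 15 keratocyte markers (rho 1, exact permutation p = 0.00139 and 0.00278, adjusted p for r 0.0694, 0.96 without the 2 farthest libraries and 0.960 to 0.982 with each library left out). Its r with the endothelium markers was -0.39 (rho -0.14, exact permutation p = 0.45 and 0.803), and 0.33 without the 2 farthest libraries. Lum also had r = 0.93 with the vascular list and 0.93 with the Schwann cell list, at 0.39 and 0.75 without 2. Among single keratocyte markers, 13 of 15 were positively related to Lum, but only 4 with r over 0.8, and the median r was 0.63. Values ran from -0.41 for Tkt to 0.98 for Pdgfra, a receptor of fibroblast-type cells. Of 7226 other genes above 10 TPM, 4 had an r with the keratocyte list as high as that of Lum. Dcn had r = 0.95 for keratocyte markers (rho 0.94, exact permutation p = 0.0125 and 0.0167, adjusted p for r 0.139, 0.68 without 2) and -0.00034 for endothelium markers (rho -0.086, exact permutation p = 0.999 and 0.919, 0.45 without 2). Its r was about as high with the vascular list, at 0.94 (rho 0.94, exact permutation p = 0.0194 and 0.0167, 0.74 without 2), and with the iris and pigment cell list, at 0.92 (rho 0.83, exact permutation p = 0.0292 and 0.0583, 0.20 without 2). Kera had r = 0.76 and -0.34 with these lists (rho 0.77 and -0.26, exact permutation p for r 0.0847 and 0.49), and 0.42 and 0.31 without 2. Its highest r were with the Schwann cell (0.86), vascular (0.85) and immune (0.84) lists, at 0.92, 0.67 and -0.31 without 2. The difference between Ogn and the other members in these relations was not tested.

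Fmod, Prelp and Aspn were highest in r with the list of iris and pigment cells (Fmod, Prelp) or of trabecular meshwork and sclera (Aspn), tissues at the corneal margin. With the 9 markers of iris and pigment cells, r was 0.91 for Fmod (rho 0.94, exact permutation p = 0.00556 and 0.0167), 0.94 for Prelp (rho 0.94, 0.00972 and 0.0167) and 0.92 for Aspn (rho 0.83, 0.0139 and 0.0583), each with an adjusted p for r of 0.139, and without 2 libraries r was 0.88, 0.64 and 0.58. With the 9 markers of trabecular meshwork and sclera, r was 0.80, 0.90 and 0.95 (rho 0.83, 0.83 and 0.94, exact permutation p for r 0.0639, 0.0167 and 0.0111), and 0.83, 0.87 and 0.94 without 2. Fmod, Prelp and Aspn were also related to other lists. With the vascular list r was 0.78, 0.92 and 0.83 (0.51, 0.17 and 0.034 without 2), and with the keratocyte list 0.78, 0.85 and 0.80 (0.27, 0.24 and 0.026 without 2). Other members were related to the pigment list and to the trabecular meshwork and sclera list as well. Bgn had r = 0.82 with the pigment list (rho 0.94, exact permutation p = 0.0403 and 0.0167, 0.998 without 2) and Lum 0.83 (-0.045 without 2), and Epyc and Omd had 0.86 and 0.84 with the trabecular meshwork and sclera list (0.85 and 0.97 without 2). The r of Epyc rests on few counts, 0, 12 and 0 in Col8a2 replicates 1 to 3 and 11, 67 and 0 in Tcf4+/- replicates 1 to 3. The pigment markers summed to 399 to 1250 CPM in the Col8a2 group and 775 to 1615 CPM in the Tcf4+/- group. In all, 24 of the 100 relations had an exact p under 0.05 and 0 passed adjustment. Col8a2 replicate 1 and Tcf4+/- replicate 3, the libraries lowest in both Ogn and the endothelium markers, were also those with little Xist (0.51 and 1.22 CPM, against 46.0 to 79.9 CPM in the other 4). The part of sex or of tissue content in these relations was not tested.

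Among the genes whose course over the 6 libraries was most like the mean of the standardized members, of 6795 protein-coding genes of at least 10 TPM, were Pgrmc2 (r = 0.98), Postn (0.98), Sec61a2 (0.98), Adprh (0.96), Serpinf1 (0.96), Cpxm1 (0.95) and Plvap (0.95). Postn encodes periostin, a matrix protein of fibroblast-type cells. It was at 31.8, 44.8 and 22.2 CPM in Col8a2 libraries against 25.9, 75.9 and 32.0 CPM in Tcf4+/- libraries, lowest and highest in the same libraries as Dcn.

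The remaining SLRP-family genes and the genes that build, bind and cut SLRPs were read from lists fixed by function. None of these genes passed an adjusted p of 0.05 in edgeR. Of 6 tested family genes, 5 were fitted higher and 1 lower, with 0 at an unadjusted p under 0.05 (median log2 fold change 1.01 against 0.0011 over all genes). The one fitted lower was Optc, opticin, the neighbour of Prelp and a product of the ciliary body, at 52.1, 116 and 3.00 CPM against 19.2, 49.0 and 7.63 CPM (-1.18, SE 0.997). That value ran from -2.09 without Tcf4+/- replicate 2 to -0.12 without Col8a2 replicate 2, and was -0.22 with limma voom and -0.52 with the replicate block. Ecm2, the neighbour of Aspn, was at 4.35, 6.50 and 1.74 CPM against 5.55, 13.7 and 6.04 CPM (1.004, SE 0.74). Chad, chondroadherin, was at 6.33, 13.9 and 0.296 CPM against 3.07, 15.1 and 23.1 CPM (1.01, SE 1.09), and at -1.16 without Tcf4+/- replicates 2 and 3.

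Enzymes of keratan sulfate synthesis, the chains of Lum, Kera and Fmod, were fitted higher for 5 and lower for 4 of 9, with 0 at an unadjusted p under 0.05 (median 0.17). Chst5, a sulfotransferase of keratan sulfate, was at 852, 1412 and 1567 CPM against 961, 1446 and 266 CPM (-0.52, SE 0.56). Like Ogn, it was lowest in Tcf4+/- replicate 3 and next lowest in Col8a2 replicate 1. B3gnt7, which extends the chain, was at 67.3, 63.7 and 108 CPM against 88.4, 147 and 81.8 CPM (0.41, SE 0.34), and Chst1, which sulfates its galactose, at 7.14, 10.8 and 5.99 CPM against 8.71, 10.3 and 22.6 CPM (0.80, SE 0.55).

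Of 20 genes of chondroitin and dermatan sulfate synthesis, the chains of Dcn and Bgn, 7 were fitted higher and 13 lower, again with 0 at an unadjusted p under 0.05 (median -0.085). Groups did not overlap for 3 of the 20, against 8.1% of all genes tested. Chpf2, a chain polymerizing factor, was one, at 73.9, 115 and 74.0 CPM against 50.2, 65.3 and 18.6 CPM (-0.97, SE 0.44, unadjusted p = 0.0505 by edgeR). Csgalnact1, which starts the chain, was another and went the other way, at 2.12, 0.323 and 0.0198 CPM against 9.30, 4.20 and 6.28 CPM (3.00, SE 1.36, unadjusted p = 0.0527 by edgeR). Chpf was at 206, 336 and 271 CPM against 164, 313 and 108 CPM (-0.48, SE 0.41), and Chst12, a sulfotransferase, at 58.5, 139 and 118 CPM against 86.6, 127 and 41.9 CPM (-0.31, SE 0.44).

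Sulfate supply, on which both kinds of chain depend, held the gene of lowest p in these lists. Of 7 genes, 2 were fitted higher and 5 lower (median -0.033), and 2 had an unadjusted p under 0.05 (2.42% of all genes), both lower. Groups did not overlap for 2 of the 7, against 8.1% of all genes tested. Papss2, which makes the sulfate donor, was at 63.2, 54.3 and 27.1 CPM in Col8a2 libraries against 21.2, 18.9 and 11.6 CPM in Tcf4+/- libraries. All 3 Tcf4+/- libraries lay below all 3 Col8a2 libraries, and the log2 fold change was -1.48 (SE 0.41, unadjusted p = 0.00489, adjusted p = 0.99988 by edgeR; adjusted p = 0.122 by DESeq2). It was -1.19 without Tcf4+/- replicates 2 and 3. Slc26a2, a sulfate transporter at the cell surface, was at 23.0, 28.7 and 24.6 CPM against 16.1, 16.3 and 8.30 CPM, also without overlap (-0.90, SE 0.39, unadjusted p = 0.0464, adjusted p = 0.99988 by edgeR). Neither passed adjustment over all genes. Papss1, the second donor synthase, was at 74.5, 41.6 and 45.4 CPM against 99.3, 58.2 and 52.5 CPM (0.38, SE 0.35), and Slc35b2, which carries the donor into the Golgi, at 74.5, 144 and 98.8 CPM against 115, 142 and 53.1 CPM (-0.033, SE 0.40).

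Collagens and partners bound by SLRPs were fitted higher for 9 and lower for 3 of 12 (median 0.36, 0 at an unadjusted p under 0.05). Col1a1, a chain of the main stromal collagen, was at 1463, 995 and 533 CPM against 1046, 2971 and 1480 CPM (0.88, SE 0.51), highest in Tcf4+/- replicate 2 and lowest in Col8a2 replicate 3, as Lum was. It was 0.36 without Tcf4+/- replicate 2 and 0.060 without replicates 2 and 3. Col1a2 was at 1730, 1703 and 1025 CPM against 1175, 2726 and 1311 CPM (0.23, SE 0.43), Tnxb at 18.5, 14.0 and 7.43 CPM against 13.0, 32.6 and 28.3 CPM (0.89, SE 0.49), and Col12a1, a collagen at fibril surfaces, at 1916, 2242 and 2931 CPM against 2259, 3552 and 1139 CPM (-0.029, SE 0.46).

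Of 11 proteases that cut SLRPs or their precursors, 5 were fitted higher and 6 lower (median -0.10), with 0 at an unadjusted p under 0.05. Bmp1, which removes the propeptide of several SLRPs, was at 82.0, 128 and 110 CPM against 66.1, 99.1 and 55.8 CPM (-0.54, SE 0.31). Its relative Tll1 was at 3.11 CPM or below in every library. Htra1 was at 258, 295 and 203 CPM against 192, 430 and 145 CPM (0.020, SE 0.42), and Mmp2 at 177, 259 and 166 CPM against 171, 272 and 177 CPM (0.045, SE 0.32).

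Of 12 signalling partners, which include ligands and receptors that decorin or biglycan binds, 4 were fitted higher and 8 lower (median -0.23), with 0 at an unadjusted p under 0.05. Egfr, a receptor bound by decorin, was at 13.5, 32.5 and 9.39 CPM against 10.5, 17.6 and 7.39 CPM (-0.64, SE 0.56). Bmp4, a ligand bound by biglycan, was at 60.2, 68.8 and 19.4 CPM against 35.6, 34.7 and 33.3 CPM (-0.52, SE 0.43), Tgfb3 at 97.9, 133 and 62.5 CPM against 91.1, 141 and 141 CPM (0.34, SE 0.34) and Ccn2 at 222, 203 and 272 CPM against 163, 422 and 87.7 CPM (-0.052, SE 0.50).

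Keratocyte markers other than SLRPs were fitted higher for 10 and lower for 5 of 15 (median 0.28). Of the 15, 1 was at an unadjusted p under 0.05 by edgeR, against 2.42% of all genes. It was Mme, a surface peptidase, at 39.7, 18.1 and 20.4 CPM against 51.1, 53.3 and 41.9 CPM (0.90, SE 0.37, unadjusted p = 0.0338, adjusted p = 0.99988 by edgeR). Lsamp, an adhesion protein, was at 46.4, 48.2 and 117 CPM against 112, 170 and 95.8 CPM (0.84, SE 0.41). Among the enzymes that serve as corneal crystallins, Aldh3a1 was at 6023, 2823 and 3583 CPM against 4439, 2761 and 4976 CPM (-0.030, SE 0.43) and Tkt, transketolase, at 1756, 1602 and 1637 CPM against 1731, 1547 and 961 CPM (-0.24, SE 0.36). Both are also strongly expressed by corneal epithelium, whose markers summed to 3300 to 7169 CPM in the Col8a2 group and 2470 to 7469 CPM in the Tcf4+/- group.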

How the data were processed

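RNA-seq of 6 libraries was used, 3 per group, grouped by the sample titles. RNA was taken up with the RNeasy Micro Kit, turned into full-length cDNA with SMART-Seq HT and prepared with Nextera XT, per the labels' protocols, with no strand information described. The submitters' processing notes name FastQC 0.12.1, fastp 0.23.2, STAR, RSEM, DESeq2 and build GRCm39. For the last 3 tools no version is stated there, and the annotation release was not given in the sources used.

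The authors deposited RSEM tables, per the file headers. Each expected count in them is the authors' RSEM estimate of reads per gene, with shared reads split between genes and no scaling to depth, and 9.97% were not whole. TPM, also deposited, is the authors' value per gene length on a common total. FPKM values were also deposited and were not used. Symbols were matched by identifier for 51884 of 57180 genes, and 5296 had none.

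Expected counts were rounded, filtered with filterByExpr, scaled by TMM (factors 0.974 to 1.06) and tested with the quasi-likelihood test of edgeR 4.0.16 in R 4.3.3 (robust, group as the only term, Benjamini-Hochberg over 17639 genes, threshold 0.05). The common biological coefficient of variation was 0.744. log2 CPM used a prior count of 2. Correlations over 6 libraries used exact two-sided permutation of all 720 pairings. With 3 against 3, an exact permutation test on 1 gene cannot go below p = 0.1. The scripts were tested on simulated counts. Alternatives used DESeq2 1.42.0 and limma 3.58.1, other scalings and filters, log2(TPM + 1) and log2(TPM + 0.1), a replicate block, and libraries left out.

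The members and gene lists were chosen with earlier results of these data known. Named genes were all members, then in each function list the 2 of highest TPM and the 2 of lowest p, and the 8 genes of most similar pattern, of which 1 is not reported here. Marker lists were read as summed CPM and as mean log2 CPM. Of 10 marker lists, erythroid, immune, Schwann cell and vascular markers are in the closing observations.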

Additional observations from a re-analysis of the deposited data

How the results depend on the processing

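No member passed an adjusted p of 0.05 under any of the 16 alternatives (15 for Epyc, which the filter of a mean of at least 5 CPM removed), and the lowest adjusted p was 0.774, for Lum. Dcn and Epyc kept their direction under every alternative run, but Dcn fell from 0.49 to 0.15 without Tcf4+/- replicate 2 and to 0.043 without replicates 2 and 3. Over all genes, DESeq2 called 105 genes and edgeR 0, and leaving out 1 library gave 0 to 4 (4 without Col8a2 replicate 3). The number of members fitted higher was 5 to 10 with 1 library left out and 3 without Tcf4+/- replicates 2 and 3, an alternative chosen after seeing the data; the lone Tcf4+/- library is then assumed to vary like the other group. Without those 2 libraries the log2 fold change was -0.0080 for Lum, -0.18 for Kera, -1.11 for Fmod, -0.091 for Prelp, -0.023 for Omd, -0.37 for Aspn, -1.16 for Chad, 0.11 for Slc35b2, -0.40 for Htra1, -0.24 for Mmp2, -0.35 for Col1a2, -0.047 for Tnxb, -0.11 for Tgfb3, 0.091 for Aldh3a1, 0.048 for Tkt and 0.073 for Col8a2, and it shrank to 0.060 for Col1a1, 0.39 for Ecm2, 0.14 for B3gnt7 and 0.12 for Chst1. Fewer samples are tested there, and the cause of the turns was not tested. With 1 library left out, values ran from -0.23 to 0.73 for Kera, -0.32 to 0.59 for Ogn, -0.47 to 1.09 for Fmod, -0.48 to 0.13 for Bgn, -0.054 to 1.76 for Aspn, -0.70 to 0.013 for Chst12, -0.33 to 0.27 for Slc35b2, -0.57 to 0.30 for Htra1, -0.19 to 0.28 for Mmp2, -0.47 to 0.29 for Col12a1, -0.24 to 0.44 for Col1a2, -0.88 to 0.32 for Ccn2, -1.03 to 0.049 for Egfr, -0.24 to 0.34 for Aldh3a1 and -0.35 to 0.27 for Col8a2. With limma voom, Ogn was at -0.13, Htra1 at -0.14 and Aldh3a1 at 0.0080. On log2(TPM + 1), Ogn was at -0.32, Htra1 at -0.39, Mmp2 at -0.032, Col1a2 at -0.056 and Tcf4 at -0.071, and on log2(TPM + 0.1) at -0.33, -0.39, -0.032, -0.057 and -0.072. Upper-quartile scaling gave 0.012 for Slc35b2, 0.021 for Col12a1, 0.029 for Aldh3a1 and 0.018 for Col8a2, and the filter of a mean of at least 5 CPM gave 0.0027 for Col12a1 and 0.015 for Aldh3a1. Samples of the 2 groups share only replicate numbers: deviations of same-numbered libraries correlated at -0.024, 0.14 and -0.015. With the replicate block, 0 genes were called, Ogn was at -0.035, Htra1 at -0.13 and Aldh3a1 at 0.00029, and 8 members were fitted higher. Omd, Aspn and Epyc rest on 813 counts or fewer per library. The SE was 0.71 for Omd and 0.65 for Fmod, which had at least 8729 counts in each library. The part of low counts in the width of the intervals was not tested.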

Other observations

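Genes whose course was most like that of Ogn were looked up after its values were seen. By Pearson r of log2 CPM over 6 libraries they were Ift172 (0.996), Thsd4 (0.995), Tgfbr3 (0.995), Ext2 (0.993), Jam2 (0.993), Sdc2 (0.990), Kcnk5 (0.989) and Slit2 (0.988). Ext2 encodes a polymerase of heparan sulfate, and Sdc2 and Tgfbr3 encode cell-surface proteoglycans. Sdc2 was at 203, 312 and 329 CPM in Col8a2 replicates 1 to 3 and 346, 375 and 115 CPM in Tcf4+/- replicates 1 to 3, and Tgfbr3 at 199, 274 and 385 CPM against 392, 465 and 93.0 CPM. Jam2, a junction protein, was at 67.6, 101 and 127 CPM against 113, 152 and 46.1 CPM. All were lowest in Tcf4+/- replicate 3 and highest in Tcf4+/- replicate 2, as Ogn was.

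Vascular markers (7 of 7 tested) summed to 106 to 287 CPM in the Col8a2 group and 205 to 289 CPM in the Tcf4+/- group, immune markers (7 of 8) to 208 to 802 and 280 to 550 CPM, Schwann cell markers (6 of 6) to 193 to 288 and 247 to 354 CPM, and erythroid markers (5 of 5) to 531 to 1968 and 1362 to 6127 CPM. Lum had r = 0.93 with the vascular list (rho 0.83, exact permutation p = 0.00972 and 0.0583, adjusted p for r 0.139) and 0.93 with the Schwann cell list (rho 0.77, exact permutation p = 0.0111 and 0.103, adjusted p for r 0.139); without the 2 farthest libraries these were 0.39 and 0.75.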
